A study of Homo sapiens with 21 samples.

Results

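The mRNA of 10 amino acid transporter genes was followed in HCC1806, a human triple-negative breast cancer cell line, in 7 groups of 3 libraries. The genes were the glutamate and neutral amino acid carriers SLC1A1, SLC1A3, SLC1A4 and SLC1A5, the heavy chain SLC3A2, the light chains SLC7A5 and SLC7A11, the cationic carrier SLC7A1, and the sodium-coupled neutral carriers SLC38A1 and SLC38A2. They are 10 of the 60668 genes listed in each of the 2 count tables, found by Ensembl identifier without its version. They were chosen by the differences in count of each line from its control, which were already known, so those differences are given as a description, with no p-value. The difference between 2 lines of a table is the difference of 2 such values, so it is given in the same way. Genes outside the 10 are given with p-values. Their lists were also chosen with earlier results of these data known, so these are not tests independent of that choice. The list counts, medians and p-values below are therefore read as descriptions of these libraries.

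The first table held 3XCTL, a control, 3xSR, which the series title describes as overexpressing SRSF2, SRSF3 and SRSF7, and MYC-OE, overexpressing MYC. The second held 1xCtrl, a control with a single plasmid, and the lines SRSF2 OE, SRSF3 OE and SRSF7 OE, each labelled for the overexpression of 1 splicing factor of the serine and arginine rich family. All 21 libraries came from adherent (2D) cultures harvested near confluence in medium with serum, and were poly(A)-selected with a stranded kit. The labels do not say whether a line was 1 clone, which promoter drove the transgene, or whether replicates were separate cultures, so p-values measure only the spread between these libraries.

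Amino acid transporters set what a growing cell can take up and exchange. The heavy chain SLC3A2 (4F2hc, CD98) brings its light chains to the plasma membrane: with SLC7A5 (LAT1) it exchanges intracellular glutamine for leucine and other large neutral amino acids, and with SLC7A11 (xCT) it exports glutamate for cystine, from which glutathione is made. SLC1A5 (ASCT2), SLC38A1 (SNAT1) and SLC38A2 (SNAT2) carry glutamine, SLC1A4 (ASCT1) carries serine and other small neutral amino acids, SLC1A1 (EAAT3) and SLC1A3 (EAAT1) carry glutamate and aspartate, and SLC7A1 (CAT1) carries arginine and lysine. Several of these genes are known targets of ATF4, the transcription factor of the amino acid response, and SLC1A5 and SLC7A5 are known targets of MYC, while SLC7A11 is a known target of NRF2.

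Promoter windows from RefSeq (GRCh38.p14, 250 bases before to 50 bases after an annotated start, read on the gene's strand) were available for 9 of the 10 genes, as 17 windows, and were searched on both strands for 3 short motifs. The core of the amino acid response element, TGATGNAA, was found in 6 of the 17 windows, belonging to SLC1A3, SLC1A4, SLC1A5, SLC38A1, SLC3A2 and SLC7A1, and in 3.62% of all 35116 windows. The E-box CACGTG, the preferred site of MYC with its partner MAX, was in 2 windows, 1 of SLC1A5 and that of SLC7A5, against 7.26% of all windows. The antioxidant response core TGACNNNGC was in 5 windows, of SLC1A3, SLC1A5, SLC3A2, SLC7A1 and SLC7A5, against 13.3%. SLC7A11 was the gene without a window, so its promoter was not searched for any of the motifs. Of the windows, 4 are printed: those of SLC1A3 and SLC1A4 with the amino acid response core, because these 2 genes differed most between the lines, and those with the E-box, because MYC was 1 of the overexpressed genes. Capitals mark motif matches on either strand: the amino acid response core in SLC1A3 (chr5:36596338-36596637, plus strand) and, as its reverse complement, in SLC1A4 (chr2:64989149-64989448, plus strand), and the antioxidant core and the E-box in SLC1A5 (chr19:46787244-46787543, minus strand) and in SLC7A5 (chr16:87869458-87869757, minus strand). The SLC1A3 window belongs to a RefSeq start upstream of the gene start in GENCODE release 29. Those of SLC1A4 and SLC1A5 belong to RefSeq starts inside the gene, at 64989399 and 46787293. The windows of the starts nearest the gene start, 64988479 in SLC1A4 and 46788594 in SLC1A5, had 0 matches to each motif. A match is a string of letters, and binding was not measured.
SLC1A3: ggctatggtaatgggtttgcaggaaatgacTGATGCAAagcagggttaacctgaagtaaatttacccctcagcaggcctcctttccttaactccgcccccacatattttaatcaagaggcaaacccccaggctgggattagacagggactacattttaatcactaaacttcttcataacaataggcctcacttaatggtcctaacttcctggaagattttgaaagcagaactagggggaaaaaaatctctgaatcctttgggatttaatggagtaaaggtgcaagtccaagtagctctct
SLC1A4: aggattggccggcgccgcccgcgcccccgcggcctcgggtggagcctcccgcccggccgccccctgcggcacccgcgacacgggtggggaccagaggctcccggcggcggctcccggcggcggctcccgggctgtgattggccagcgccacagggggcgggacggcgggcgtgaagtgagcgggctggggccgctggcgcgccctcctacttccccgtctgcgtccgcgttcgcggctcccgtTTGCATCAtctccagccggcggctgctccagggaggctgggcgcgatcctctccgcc
SLC1A5: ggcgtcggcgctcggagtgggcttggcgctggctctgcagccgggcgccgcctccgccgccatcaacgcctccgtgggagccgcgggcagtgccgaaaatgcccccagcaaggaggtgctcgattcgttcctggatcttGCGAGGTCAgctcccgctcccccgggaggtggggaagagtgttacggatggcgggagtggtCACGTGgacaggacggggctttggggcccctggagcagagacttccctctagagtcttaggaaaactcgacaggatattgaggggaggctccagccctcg
SLC7A5: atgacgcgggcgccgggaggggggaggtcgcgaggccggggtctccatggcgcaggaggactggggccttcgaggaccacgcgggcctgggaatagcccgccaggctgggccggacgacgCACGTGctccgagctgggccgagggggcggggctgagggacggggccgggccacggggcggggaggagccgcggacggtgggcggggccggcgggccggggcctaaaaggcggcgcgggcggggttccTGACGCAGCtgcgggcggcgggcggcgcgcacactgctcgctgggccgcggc

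Library totals ran from 143269192 to 303323552 counts, so that 3 counts, taken as the floor, correspond to 0.00989 to 0.0209 CPM, counts scaled to a fixed library total. Against the controls, MYC was higher in MYC-OE (log2 fold change 0.90, SE 0.05) and also in 3xSR (0.75, SE 0.05). By less, MYC was higher in SRSF3 OE (0.26, SE 0.06) and SRSF7 OE (0.27, SE 0.06). Over the alternative fits these ranged from 0.15 to 0.37 and from 0.20 to 0.34. MYC in SRSF2 OE (0.12, SE 0.06) overlapped its control. SRSF3 was higher in SRSF3 OE (0.49, SE 0.07) and SRSF7 in SRSF7 OE (0.26, SE 0.05). Lower SRSF2 than in the control was found in MYC-OE (-0.48, SE 0.05) and SRSF7 OE (-0.38, SE 0.06). SRSF2 was not higher in the libraries labelled SRSF2 OE (-0.16, SE 0.06) or in those labelled 3xSR (-0.06, SE 0.05), so the names SRSF2 OE and 3xSR are used below as the labels give them. SRSF3 and SRSF7 were higher than control in both, by 0.30 and 0.24 in SRSF2 OE (edgeR adjusted p = 0.0079 and 0.0068) and by 0.31 and 0.44 in 3xSR (adjusted p = 0.0024 and 3.6e-05). Basal-like markers were high in all libraries, with KRT5 at 1600 to 2651 CPM, and of the markers that triple-negative cells lack, PGR stood at 0 to 1.46, ESR1 at 6.49 to 11.5 and ERBB2 at 99.6 to 184 CPM. Of 5 immune and 3 endothelial markers, CD68 stood at 5.92 to 36.1 CPM, VWF at 0.108 to 1.04 and PTPRC at 0.126 to 0.539, and the others, CD3E, LYZ, PECAM1 and CDH5 among them, did not exceed 0.149 CPM. Of 6 fibroblast markers, LUM stood at 5.51 to 39.7 and COL1A1 at 5.46 to 15.7 CPM, and COL1A2, COL3A1, PDGFRB and DCN stayed under 1 CPM. The summed immune markers were lowest in 3XCTL (6.19 to 11.1 CPM) and highest in MYC-OE (32.5 to 36.5), and the summed fibroblast markers were highest in 3XCTL (47.4 to 49.7) and lowest in SRSF3 OE (15.3 to 16.5), and their part in the transporter values was not tested. Some libraries of 1 group differed in a GC tilt, the median log2 deviation of genes over 60% GC minus that of genes under 40% GC, measured against the mean of the table. It was -0.22, 0.72 and -0.48 in the 3 libraries of 1xCtrl and 0.29, -0.36 and 0.26 in those of 3XCTL, so replicate 2 stood apart in both controls. All 3 tilts were negative in 3xSR and in SRSF3 OE and all 3 were positive in MYC-OE, so a trend with GC content and these lines cannot be told apart. Differences are therefore given also from a fit in which each library's trend with GC content was removed.

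Per kilobase of exon, the scale on which genes can be compared, SLC7A5 was the most abundant of the 10 in both controls, at 379 ± 69.1 CPM per kb in 3XCTL and 243 ± 87.0 in 1xCtrl (SD, n = 3). In 3XCTL it was followed by SLC3A2 at 192 ± 10.3, SLC1A5 at 164 ± 15.7 and SLC38A2 at 157 ± 6.89, of which SLC1A5 and SLC38A2 lay within their SDs of each other. A middle set comprised SLC38A1 at 54.1 ± 4.46, SLC7A1 at 48.5 ± 3.36 and SLC7A11 at 41.9 ± 2.41 CPM per kb. Much lower levels were found for SLC1A3, at 5.39 ± 0.346, and SLC1A4, at 5.21 ± 0.146 CPM per kb, which lay within their SDs of each other. In 1xCtrl the order of the 4 highest was SLC7A5, SLC38A2 at 226 ± 29.7, SLC3A2 at 164 ± 16.8 and SLC1A5 at 155 ± 21.8, and of these neighbours SLC38A2 and SLC3A2 alone lay apart by more than their SDs. SLC1A1, the neuronal and epithelial glutamate carrier, had 0 counts in 16 of the 21 libraries and at most 5 counts (0.0270 CPM) in any, so it did not pass the filter on low counts and 9 of the 10 genes entered the tests.

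**Figure D1:**
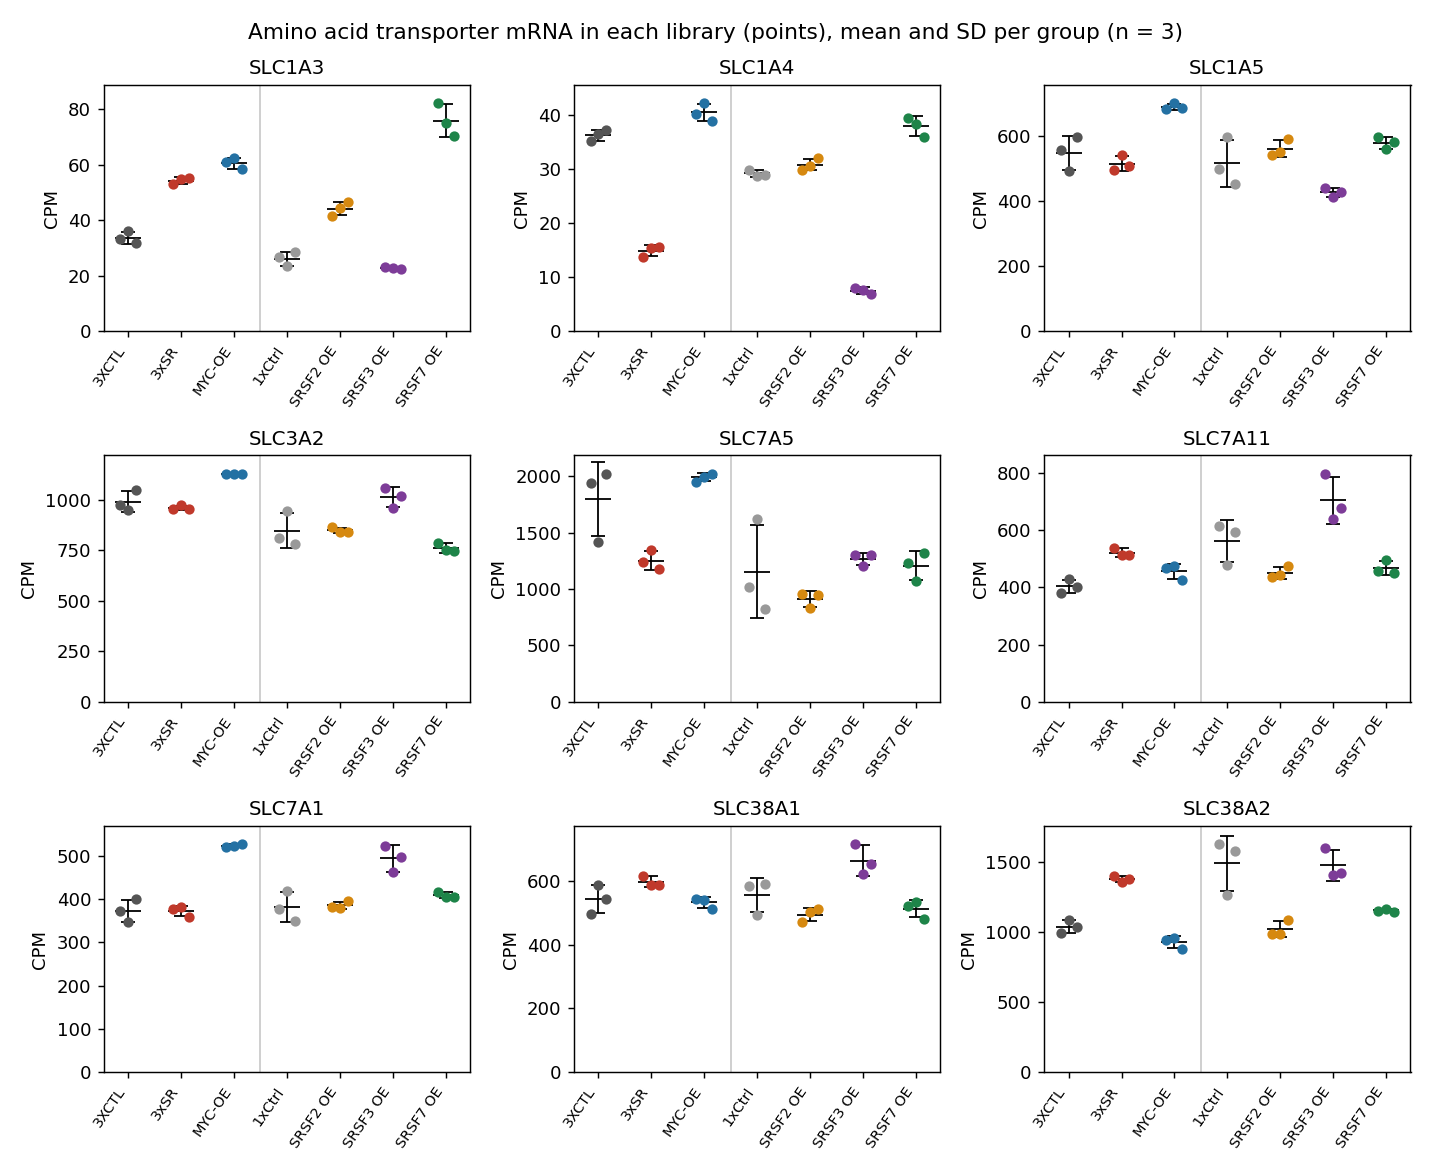
CPM (vertical axis, linear from 0) of the 9 transporters that passed the filter, in each of 21 libraries; points are libraries, the bar and whiskers the mean and SD of 3, and the grey line separates the 2 tables. SLC1A4 is low in all 3 libraries of 3xSR and of SRSF3 OE, SLC1A3 is highest in SRSF7 OE, and the libraries of 1xCtrl are widely spread for SLC7A5.

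Against 3XCTL, 5 of the 9 transporters passed an edgeR adjusted p of 0.05 in 3xSR, 3 higher and 2 lower, where 29% of all 23160 genes tested passed, 15.3% higher and 13.7% lower. In MYC-OE 6 passed, 5 higher and 1 lower, against 35.3% of all genes, 18% higher and 17.3% lower. Against 1xCtrl, 3 of 9 passed in SRSF2 OE, 1 higher and 2 lower, with 23.5% of 24362 genes passing, 11.6% higher and 11.9% lower. In SRSF3 OE 6 passed, 4 higher and 2 lower, against 29.2%, 15% higher and 14.1% lower, and in SRSF7 OE 3 passed, 2 higher and 1 lower, against 17.3%, 9.03% higher and 8.26% lower. With replicate 2 of 1xCtrl left out, 5 passed in SRSF2 OE and 7 in SRSF7 OE, and in SRSF3 OE 2 passed when its replicate 1 or its replicate 3 was left out. The rule that chose the genes used these contrasts, so nothing is read from these counts. The 2 lines of the first table share their control libraries, as do the 3 of the second.

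Among the 9 transporters, SLC1A3 and SLC1A4 of the SLC1 family of glutamate and neutral amino acid carriers showed the widest differences from control. SLC1A4 was at 0.411 times its control level in 3xSR and 0.256 times in SRSF3 OE, while SLC1A3 was higher than control in 3xSR, MYC-OE, SRSF2 OE and SRSF7 OE but not in SRSF3 OE. SLC1A3 (GENCODE release 29, GRCh38, chromosome 5, 36606355 to 36688334, plus strand) encodes a glutamate and aspartate carrier best known from astrocytes. SLC1A3 stood at 33.4, 36.1 and 31.9 CPM in 3XCTL, 53.0, 54.8 and 55.2 in 3xSR and 60.9, 62.4 and 58.5 in MYC-OE. The second table had CPM of 26.6, 23.4 and 28.4 in 1xCtrl, 41.7, 44.4 and 46.6 in SRSF2 OE, 23.1, 22.7 and 22.5 in SRSF3 OE and 82.3, 75.0 and 70.4 in SRSF7 OE. All libraries of 3xSR, MYC-OE, SRSF2 OE and SRSF7 OE lay above every library of their control, and those of SRSF3 OE lay just below 1xCtrl. The log2 fold changes were 0.69 (SE 0.06) in 3xSR, 0.84 (SE 0.06) in MYC-OE, 0.76 (SE 0.08) in SRSF2 OE, -0.20 (SE 0.08) in SRSF3 OE and 1.54 (SE 0.08) in SRSF7 OE, the last a 2.90-fold difference. With the GC trend removed they were 0.62, 0.84, 0.75, -0.23 and 1.55. In these bulk libraries, fewer cells with a transcript and less of it per cell cannot be told apart.

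SLC1A4 (chromosome 2, 64988477 to 65023865, plus strand) encodes the exchanger ASCT1. SLC1A4 stood at 35.1, 36.3 and 37.1 CPM in 3XCTL, 13.8, 15.3 and 15.5 in 3xSR and 40.2, 42.1 and 38.9 in MYC-OE. The values of the second table were 29.8, 28.7 and 28.9 in 1xCtrl, 29.8, 30.5 and 31.9 in SRSF2 OE, 7.97, 7.62 and 6.79 in SRSF3 OE and 39.5, 38.3 and 35.8 in SRSF7 OE. The libraries of 3xSR and SRSF3 OE lay far below all the others, with no overlap, and those of SRSF7 OE lay above 1xCtrl. Log2 fold changes were -1.28 (SE 0.06) in 3xSR, 0.16 (SE 0.06) in MYC-OE, 0.08 (SE 0.07) in SRSF2 OE, -1.97 (SE 0.07) in SRSF3 OE and 0.38 (SE 0.07) in SRSF7 OE, and removing the GC trend left those of 3xSR and SRSF3 OE at -1.33 and -1.98. Luminal breast epithelial markers differed between the same libraries: the summed level of the 7 (ESR1, PGR, ERBB2, GATA3, FOXA1, KRT8, KRT18) was 1078 to 1275 CPM in 3XCTL, 887 to 933 in 3xSR, 1375 to 1398 in MYC-OE, 752 to 1033 in 1xCtrl, 973 to 1078 in SRSF2 OE, 741 to 806 in SRSF3 OE and 1160 to 1250 in SRSF7 OE. At an edgeR adjusted p under 0.05, 5 of the 7 were lower and 0 higher in 3xSR, 4 lower and 0 higher in SRSF3 OE, 3 lower and 2 higher in SRSF2 OE, 1 lower and 3 higher in MYC-OE, and 1 lower and 5 higher in SRSF7 OE, where 29%, 29.2%, 23.5%, 35.3% and 17.3% of all genes passed in either direction. Their part in the SLC1A4 values was not tested.

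SLC1A5 (chromosome 19, 46774883 to 46788594, minus strand), the glutamine exchanger ASCT2, varied within a narrower range. SLC1A5 stood at 556, 492 and 595 CPM in 3XCTL, 496, 541 and 506 in 3xSR and 682, 700.1 and 684 in MYC-OE. Among the single-factor lines and their control, CPM were 499, 595 and 452 in 1xCtrl, 542, 550.3 and 589.6 in SRSF2 OE, 441, 413 and 426 in SRSF3 OE and 596, 558 and 580.3 in SRSF7 OE. MYC-OE lay above all other libraries of its table, and SRSF3 OE lay below all others of the second table. The log2 fold change was 0.33 (SE 0.07) in MYC-OE and -0.27 (SE 0.08) in SRSF3 OE, and removing the GC trend took these to 0.24 and -0.14. In 3xSR, SRSF2 OE and SRSF7 OE the values were -0.09, 0.12 and 0.17, with libraries overlapping those of the control, and with the GC trend removed they were 0.13, 0.13 and 0.04, the first with its sign changed. SLC1A5 shares 780 exonic bases with the antisense gene AC008622.2, and the strand setting of the counting is not given in the sources used here.

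**Figure D2:**
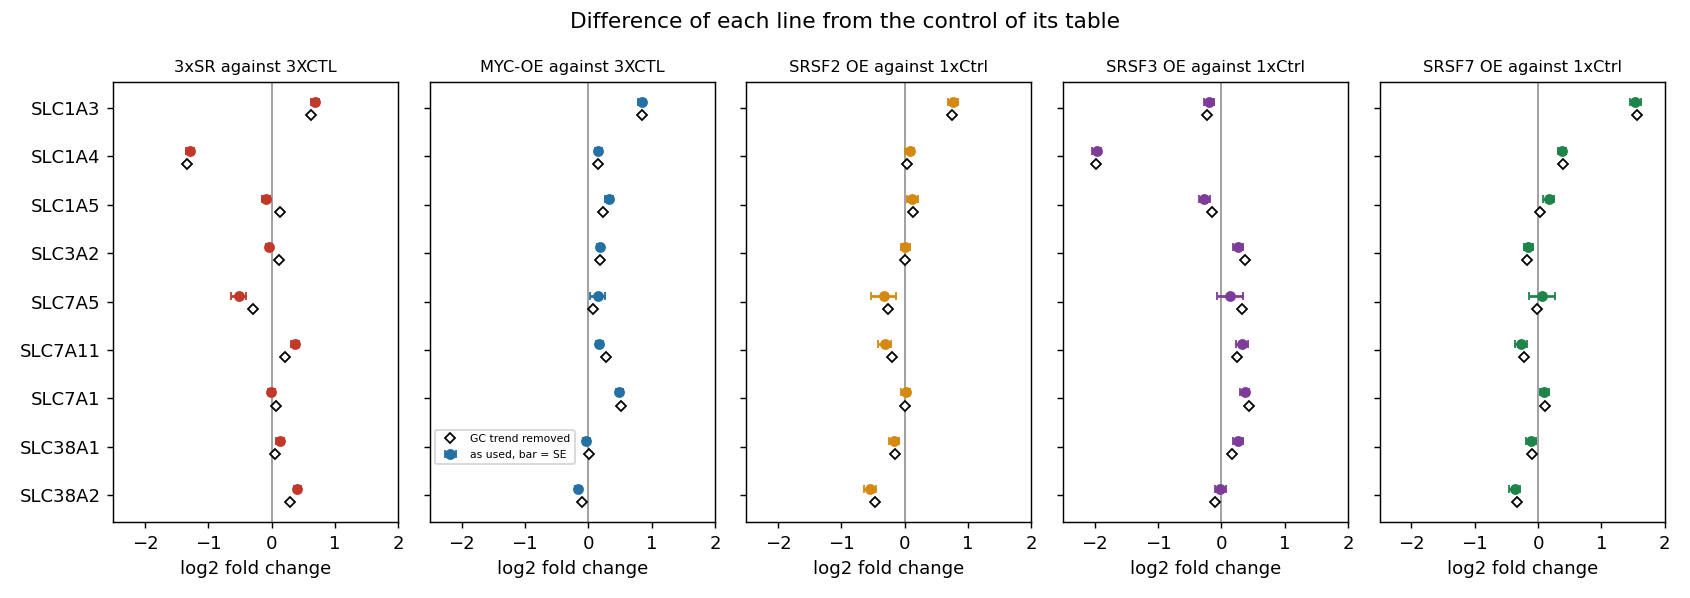
Log2 fold change (horizontal axis) of 9 transporters in each line against the control of its table; filled points are the values of the edgeR fit with bars of 1 SE, and open diamonds those with each library's GC trend removed. SLC1A4 lies far to the left in 3xSR and SRSF3 OE, SLC1A3 far to the right in SRSF7 OE, and SLC7A5 has the widest bars.

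For the heavy chain and its light chains SLC7A5 and SLC7A11, the widest difference from control was that of SLC7A5 in 3xSR, at -0.52. With the GC trend removed this was -0.29, and the widest was that of SLC3A2 in SRSF3 OE, at 0.37. SLC3A2 was highest in MYC-OE among the groups of the first table, and SRSF3 OE had higher SLC3A2 and SLC7A11 than 1xCtrl. 3xSR had lower SLC7A5 and higher SLC7A11 than 3XCTL. SLC3A2 (chromosome 11, 62856102 to 62888875, plus strand) encodes the common heavy chain. SLC3A2 stood at 975, 949.5 and 1052 CPM in 3XCTL, 957, 973 and 955 in 3xSR and 1131, 1130 and 1129 in MYC-OE. The second table gave 814, 946 and 782 in 1xCtrl, 864, 843 and 843 in SRSF2 OE, 1061, 963 and 1022 in SRSF3 OE and 789, 751 and 746 in SRSF7 OE. The MYC-OE libraries were nearly equal and lay above all others of the first table, while SRSF3 OE lay above all others of the second. Log2 fold changes were 0.19 (SE 0.05) in MYC-OE, 0.26 (SE 0.07) in SRSF3 OE, -0.04 (SE 0.05) in 3xSR, 0.0046 (SE 0.07) in SRSF2 OE and -0.15 (SE 0.07) in SRSF7 OE. Removing the GC trend moved 3xSR to 0.12 and SRSF3 OE to 0.37.

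SLC7A5 (chromosome 16, 87830023 to 87869488, minus strand) encodes LAT1, the main leucine carrier of many tumour cells. SLC7A5 stood at 1946, 1421 and 2024 CPM in 3XCTL, 1237, 1343 and 1178 in 3xSR and 1955, 1996 and 2025 in MYC-OE. In the second table the values were 1017, 1618 and 827 in 1xCtrl, 959, 833 and 951 in SRSF2 OE, 1298, 1208 and 1305 in SRSF3 OE and 1228, 1069 and 1323 in SRSF7 OE. Replicate 2 stood apart in both controls, low in 3XCTL and high in 1xCtrl. In 1xCtrl the SD of log2 CPM was 0.50, against 0.06 in SRSF3 OE. The level followed the GC tilt within groups: over the 21 libraries, with the group means taken out of both, Pearson's r was 0.96, and SLC7A5 transcripts have 61.1% GC. For SLC1A5, with 61.3% GC, r was 0.86, and for SLC7A11 and SLC38A2, with 35.4% and 38.1%, it was -0.78 and -0.78. Genes of less extreme GC gave like values, with 0.74 for SLC3A2 (57.4%) and 0.71 for SLC7A1 (52.7%). SLC1A3 (43.8%) gave -0.71 and SLC38A1 (41.3%) -0.84, while SLC1A4 (46.5%) gave -0.18. These are descriptions of libraries that share groups and depth, and the tilt was itself computed from all genes of high and low GC. The log2 fold change of SLC7A5 in 3xSR was -0.52 (SE 0.11), and -0.29 with the GC trend removed. In MYC-OE it was 0.15 (SE 0.11) and 0.07, and in SRSF2 OE -0.34 (SE 0.20) and -0.27. SRSF3 OE gave 0.14 (SE 0.20) and 0.32, and SRSF7 OE 0.06 (SE 0.20) and -0.01. Without replicate 2 of 1xCtrl the values of SRSF2 OE, SRSF3 OE and SRSF7 OE were -0.02, 0.45 and 0.40, and without replicate 2 of 3XCTL those of 3xSR and MYC-OE were -0.66 and 0.01. The pseudogene copies SLC7A5P1 and SLC7A5P2 each had at most 0.0260% of the SLC7A5 count.

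**Figure D3:**
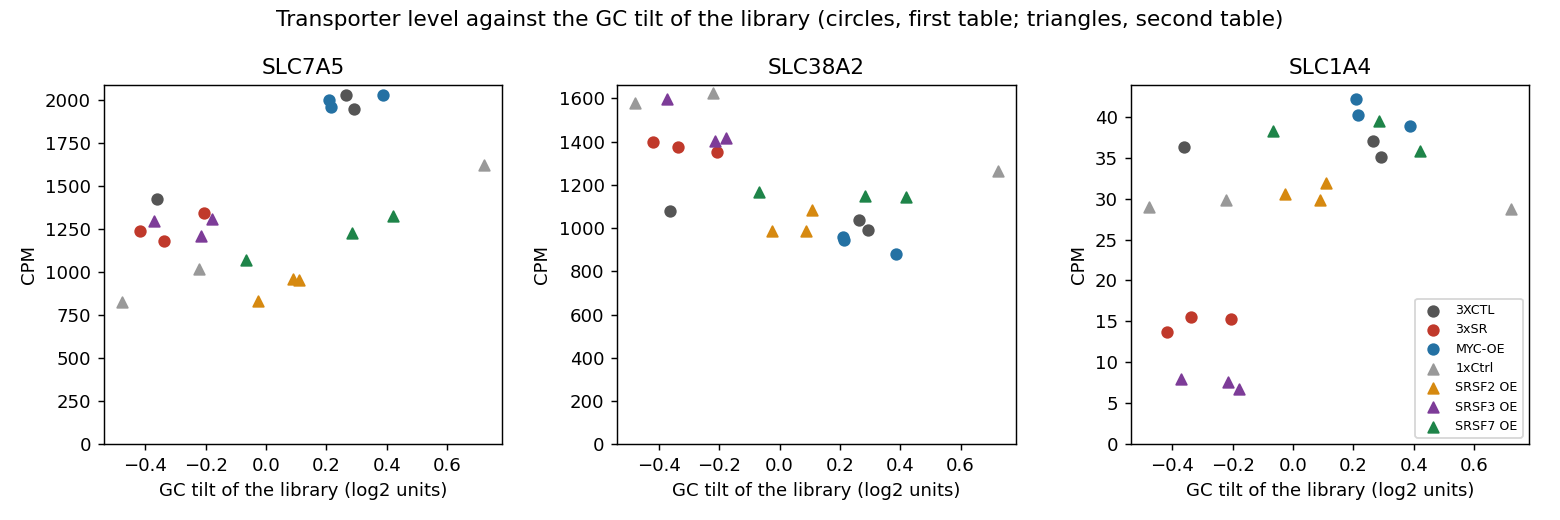
CPM (vertical axis, from 0) of SLC7A5, SLC38A2 and SLC1A4 against the GC tilt of each of 21 libraries (horizontal axis, log2 units); colours are groups, circles the first table and triangles the second. Among the libraries of 1xCtrl, SLC7A5 is highest and SLC38A2 lowest in that with the highest tilt. SLC1A4 separates 3xSR and SRSF3 OE from libraries of like tilt.

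SLC7A11 (chromosome 4, 138164097 to 138242349, minus strand) encodes the cystine and glutamate exchanger xCT. SLC7A11 stood at 382, 428 and 403 CPM in 3XCTL, 539.6, 513 and 513 in 3xSR and 467, 476 and 425 in MYC-OE. The second table had CPM of 614, 480.1 and 595 in 1xCtrl, 437, 443 and 474 in SRSF2 OE, 799, 641 and 678 in SRSF3 OE and 457, 497 and 451 in SRSF7 OE. 3xSR lay above every library of 3XCTL, SRSF3 OE above every library of 1xCtrl and SRSF2 OE below, whereas MYC-OE and SRSF7 OE overlapped their controls. The log2 fold changes were 0.37 (SE 0.06) in 3xSR, 0.17 (SE 0.06) in MYC-OE, -0.32 (SE 0.10) in SRSF2 OE, 0.33 (SE 0.10) in SRSF3 OE and -0.27 (SE 0.10) in SRSF7 OE. Without the GC trend they were 0.21, 0.27, -0.21, 0.24 and -0.23. The antisense gene SLC7A11-AS1, which shares 865 exonic bases, had at most 0.0898% of its count.

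SLC7A1 (chromosome 13, 29509410 to 29595688, minus strand), the arginine and lysine carrier CAT1, was higher in MYC-OE and in SRSF3 OE and near its control elsewhere. SLC7A1 stood at 373, 348 and 399 CPM in 3XCTL, 378, 382 and 359 in 3xSR and 521, 524 and 527 in MYC-OE. The values of the second table were 377, 419.7 and 350 in 1xCtrl, 382, 380.1 and 396 in SRSF2 OE, 523, 462 and 497 in SRSF3 OE and 417, 405 and 404 in SRSF7 OE. MYC-OE and SRSF3 OE each lay above all other libraries of their table. Log2 fold changes were 0.49 (SE 0.06) in MYC-OE and 0.37 (SE 0.07) in SRSF3 OE, or 0.52 and 0.44 with the GC trend removed. The other lines gave -0.0015 (SE 0.05) in 3xSR, 0.01 (SE 0.07) in SRSF2 OE and 0.10 (SE 0.07) in SRSF7 OE.

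The neighbouring genes SLC38A1 (chromosome 12, 46183063 to 46270017, minus strand) and SLC38A2 (chromosome 12, 46358189 to 46372867, minus strand) lie 88171 bases apart on the same strand, and SLC38A2 differed more between lines than SLC38A1. SLC38A1 stood at 497, 586 and 542 CPM in 3XCTL, 616, 586 and 588 in 3xSR and 544, 541 and 511 in MYC-OE. Among the single-factor lines and their control, CPM were 583, 492 and 590.5 in 1xCtrl, 470.1, 502 and 509.8 in SRSF2 OE, 715, 621 and 653 in SRSF3 OE and 521, 534 and 482 in SRSF7 OE. Of the 5 lines, SRSF3 OE alone had no library overlapping its control, at a log2 fold change of 0.26 (SE 0.08), and the other 4 lines ranged from -0.17 in SRSF2 OE to 0.14 in 3xSR. Removing the GC trend gave 0.17 in SRSF3 OE, -0.16 in SRSF2 OE, -0.09 in SRSF7 OE, 0.05 in 3xSR and 0.01 in MYC-OE. Without replicate 2 of 1xCtrl, the value of SRSF3 OE was 0.16.

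SLC38A2, a glutamine carrier whose transcription is induced when amino acids run short, was higher than control in 3xSR and lower in SRSF2 OE and SRSF7 OE. SLC38A2 stood at 990, 1081 and 1036 CPM in 3XCTL, 1398, 1352 and 1376 in 3xSR and 945, 956 and 879.8 in MYC-OE. The second table gave 1625, 1264 and 1579 in 1xCtrl, 985, 986 and 1084 in SRSF2 OE, 1597, 1405 and 1417 in SRSF3 OE and 1148, 1166 and 1143 in SRSF7 OE. 3xSR lay above 3XCTL and MYC-OE below it, while SRSF2 OE and SRSF7 OE lay below every library of 1xCtrl and SRSF3 OE overlapped it. The log2 fold changes were 0.41 (SE 0.05) in 3xSR, -0.16 (SE 0.05) in MYC-OE, -0.55 (SE 0.09) in SRSF2 OE, -0.02 (SE 0.09) in SRSF3 OE and -0.37 (SE 0.09) in SRSF7 OE. Removing the GC trend gave 0.29, -0.09, -0.47, -0.10 and -0.34.

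The lines of a table were next set beside each other, with no p-value for the reason given above. MYC-OE had more SLC1A4, SLC7A5 and SLC7A1 and less SLC38A2 than 3xSR. At an edgeR adjusted p under 0.05, 8 of the 9 genes passed, 6 higher and 2 lower in MYC-OE, where 34.9% of all genes passed, 17.3% higher and 17.6% lower, and nothing is read from this count or from those of the contrasts that follow. SLC1A4 was 2.72-fold higher in MYC-OE, at 40.4 ± 1.64 against 14.9 ± 0.959 CPM (SD, n = 3), a log2 fold change of 1.44 (SE 0.06). SLC7A5 stood at 1992 ± 34.9 against 1253 ± 83.3 CPM, a log2 fold change of 0.67 (SE 0.11), or 0.36 with the GC trend removed. The cationic carrier SLC7A1 differed by 0.49 (SE 0.06) and the glutamine carrier SLC38A2 by -0.57 (SE 0.05), or by 0.45 and -0.39 with the GC trend removed. SLC1A3 differed by 0.16 (SE 0.06) and SLC38A1 by -0.17 (SE 0.06), or by 0.23 and -0.04 with the GC trend removed. Its removal also brought SLC1A5, SLC3A2 and SLC7A11 near 0. SLC1A5 went from 0.42 (SE 0.07) to 0.11, SLC3A2 from 0.23 (SE 0.05) to 0.07, and SLC7A11 from -0.19 (SE 0.06) to 0.07, a change of sign.

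SRSF7 OE had more of both SLC1A4 and SLC1A3 than SRSF3 OE, and less SLC3A2, SLC7A11, SLC38A1 and SLC38A2. Of the 9 genes 8 passed, 3 higher and 5 lower in SRSF7 OE, where 35.2% of all genes passed, 17.3% higher and 17.8% lower. SLC1A4 was 5.08-fold higher, at 37.9 ± 1.86 against 7.46 ± 0.607 CPM (SD, n = 3), a log2 fold change of 2.34 (SE 0.07). SLC1A3 was 3.33-fold higher, at 75.9 ± 5.99 against 22.8 ± 0.325 CPM, a log2 fold change of 1.74 (SE 0.08). Over the alternative fits these log2 fold changes ranged from 2.31 to 2.45 for SLC1A4 and from 1.70 to 1.84 for SLC1A3. The heavy chain SLC3A2 differed by -0.41 (SE 0.07) and its light chain SLC7A11 by -0.59 (SE 0.10). Both sodium-coupled glutamine carriers were lower, SLC38A1 by a log2 fold change of -0.37 (SE 0.08) and SLC38A2 by -0.35 (SE 0.09), and SLC7A1 was at -0.27 (SE 0.07). SLC1A5 stood at 0.44 (SE 0.09) and SLC7A5 at -0.07 (SE 0.20), or at 0.18 and -0.33 with the GC trend removed.

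Between SRSF3 OE and the libraries labelled SRSF2 OE, 8 of 9 transporters passed, 5 higher and 3 lower in SRSF3 OE, where 26.8% of all genes passed, 14.1% higher and 12.6% lower. The SLC1 carriers were lower in SRSF3 OE: SLC1A4 stood at 7.46 ± 0.607 against 30.8 ± 1.06 CPM, a log2 fold change of -2.04 (SE 0.07), with SLC1A3 at -0.96 (SE 0.08) and SLC1A5 at -0.39 (SE 0.09). The cystine and glutamine carriers were higher, with SLC7A11 at 0.65 (SE 0.10), SLC38A2 at 0.53 (SE 0.09) and SLC38A1 at 0.42 (SE 0.08). SLC7A1 stood at 0.36 (SE 0.07), SLC3A2 at 0.26 (SE 0.07) and SLC7A5 at 0.47 (SE 0.20), which was 0.60 with the GC trend removed. Between SRSF7 OE and the libraries labelled SRSF2 OE, 2 of 9 passed, both higher in SRSF7 OE, where 24.2% of all genes passed, 12.8% higher and 11.5% lower. With the GC trend removed 4 passed. SLC1A3 stood at 0.78 (SE 0.08) and SLC1A4 at 0.30 (SE 0.07). The other 7 ranged from -0.16 for SLC3A2 to 0.40 (SE 0.20) for SLC7A5.

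Another 41 transporters of amino acids at the plasma membrane or lysosome were listed, of which 27 could be tested in the first table and 30 in the second; 11, among them SLC7A3 and SLC7A10, passed the filter in neither. Some of those tested were barely detected, among them SLC38A11, SLC7A9 and SLC1A6, with medians over the libraries of 0.0375, 0.0705 and 0.0978 CPM. Such genes enter the counts and medians of this list. In 3xSR, 8 of 27 rose and 4 fell against 3XCTL, with a median log2 fold change of 0.19 beside -0.0038 over all genes. Of all genes, 15.3% passed as higher and 13.7% as lower. SLC6A15, a carrier of branched-chain amino acids and proline, rose from 32.3 CPM ± 3.54 in 3XCTL to 67.6 ± 0.414 in 3xSR (SD, n = 3), a log2 fold change of 1.07 ± 0.07 (SE) with an edgeR adjusted p of 8.9e-07. In MYC-OE, 8 rose and 8 fell, with a median of -0.13 beside -0.0046 over all genes, of which 18% passed as higher and 17.3% as lower. SLC43A1 (LAT3), a leucine and phenylalanine carrier, stood at 3.34 CPM ± 0.634 in 3XCTL and 11.5 ± 1.26 in MYC-OE (SD, n = 3), a log2 fold change of 1.79 ± 0.15 (SE) with an edgeR adjusted p of 3.0e-06, and SLC16A10 (TAT1), a carrier of aromatic amino acids, rose from a low level of 0.883 to 3.88 CPM (log2 fold change 2.13, edgeR adjusted p = 5.9e-07). SLC7A6, a light chain of SLC3A2, fell in MYC-OE (log2 fold change -0.46) and so did the lysosomal carrier SLC36A1 (log2 fold change -0.52), with edgeR adjusted p of 4.9e-04 and 1.1e-04.

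Of the 30 tested in the second table, 3 rose and 9 fell in SRSF2 OE (median -0.16), 7 rose and 5 fell in SRSF3 OE (median 0.08), and 2 rose and 5 fell in SRSF7 OE (median -0.19). The medians over all genes were -0.01, -0.03 and -0.0048, and the shares passing were 11.6% higher and 11.9% lower, 15% higher and 14.1% lower, and 9.03% higher and 8.26% lower. SLC38A4, a sodium-coupled neutral carrier, fell in SRSF2 OE, at 62.0 CPM ± 9.07 in 1xCtrl and 23.1 ± 1.92 in SRSF2 OE (SD, n = 3), a log2 fold change of -1.43 ± 0.10 (SE) with an edgeR adjusted p of 1.6e-06, and in SRSF3 OE (log2 fold change -0.82, edgeR adjusted p = 5.6e-05). SLC7A8 (LAT2), another light chain, rose in SRSF3 OE, at 117 CPM ± 3.24 in 1xCtrl and 199 ± 11.7 in SRSF3 OE (SD, n = 3), a log2 fold change of 0.76 ± 0.06 (SE) with an edgeR adjusted p of 9.0e-07, and in SRSF2 OE by 0.61 (edgeR adjusted p = 1.1e-05). SLC7A2, a cationic carrier like SLC7A1, rose in SRSF3 OE by 0.82 (SE 0.08, edgeR adjusted p = 1.2e-05), and the taurine carrier SLC6A6 fell in SRSF7 OE (log2 fold change -0.55, SE 0.05, adjusted p = 4.8e-05). Without replicate 2 of 1xCtrl, 14 transporters passed in SRSF7 OE in place of 7. Between the lines themselves, where the shares of all genes are those given above, 6 were higher and 10 lower in MYC-OE than in 3xSR, and 6 higher and 11 lower in SRSF7 OE than in SRSF3 OE, where SLC7A2 and SLC7A8 had log2 fold changes of -0.98 and -0.83 (edgeR adjusted p = 1.7e-06 and 2.5e-07).

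**Figure D4:**
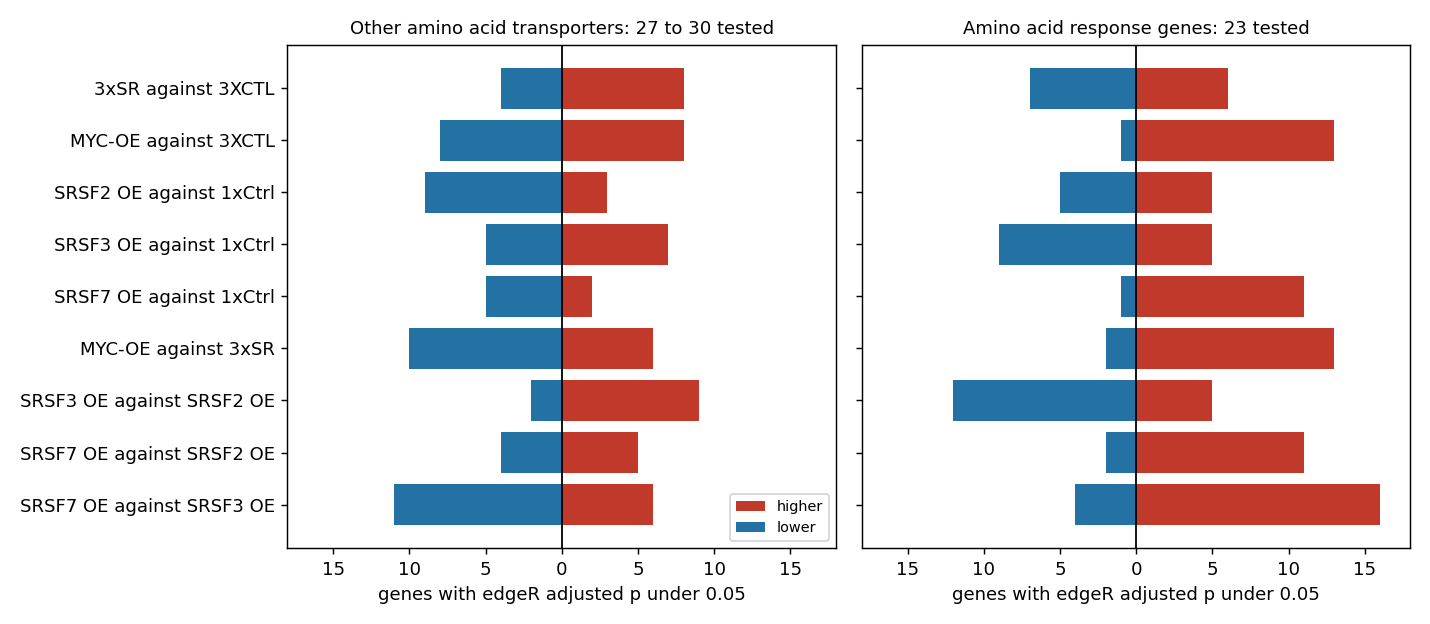
Number of genes (horizontal axis) with an edgeR adjusted p under 0.05, higher to the right in red and lower to the left in blue, in each of 9 contrasts, for the other amino acid transporters (left, 27 tested in the first table and 30 in the second) and for 23 amino acid response genes (right). Of the response genes that passed, 13 are higher and 1 lower in MYC-OE, and 11 higher and 1 lower in SRSF7 OE.

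The amino acid response is the ATF4 programme that cells switch on when amino acids run short, and it includes enzymes of asparagine, serine and cysteine synthesis. Of 23 listed genes, all tested, 13 rose and 1 fell in MYC-OE, and 11 rose and 1 fell in SRSF7 OE, with median log2 fold changes of 0.29 and 0.27 beside -0.0046 and -0.0048 over all genes. Of all genes, 18% passed as higher and 17.3% as lower in MYC-OE, and 9.03% higher and 8.26% lower in SRSF7 OE. In SRSF3 OE, 5 rose and 9 fell, in 3xSR 6 and 7, and in SRSF2 OE 5 and 5, where 29.2%, 29% and 23.5% of all genes passed in either direction. Some of these counts moved with the processing. Removing the GC trend gave 13 and 4 in MYC-OE, 7 and 8 in 3xSR and 4 and 8 in SRSF2 OE. It gave 4 and 10 in SRSF3 OE and 10 and 1 in SRSF7 OE. Without replicate 2 of 1xCtrl, 8 and 6 passed in SRSF2 OE, 5 and 9 in SRSF3 OE and 16 and 1 in SRSF7 OE. ASNS, asparagine synthetase, fell in SRSF3 OE, at 52.8 CPM ± 2.79 in 1xCtrl and 25.1 ± 2.08 in SRSF3 OE (SD, n = 3), a log2 fold change of -1.07 ± 0.07 (SE) with an edgeR adjusted p of 4.4e-07, and was higher in MYC-OE than in 3xSR by 0.89 (edgeR adjusted p = 3.9e-06). The stress factor ATF3 rose in SRSF3 OE by 1.20, in 3xSR by 1.39 and in MYC-OE by 1.18, and fell in SRSF7 OE (log2 fold change -0.44), with edgeR adjusted p of 5.8e-07, 6.1e-07, 1.4e-06 and 0.0031. CBS, which makes cystathionine from homocysteine, fell in 3xSR (log2 fold change -0.58) and in SRSF3 OE (log2 fold change -1.14), with edgeR adjusted p of 0.0014 and 0.0045, each the line of its table with the lowest SLC1A4. Between SRSF7 OE and SRSF3 OE, 16 of 23 were higher and 4 lower in SRSF7 OE, with DDIT4, an inhibitor of mTORC1, at 80.7 CPM ± 2.02 in SRSF3 OE and 219.9 ± 17.5 in SRSF7 OE (SD, n = 3), a log2 fold change of 1.45 ± 0.08 (SE) with an edgeR adjusted p of 3.7e-08.

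The 13 listed genes of glutathione synthesis and the NRF2 response gave 4 higher and 3 lower in 3xSR and 5 and 2 in MYC-OE. They gave 3 and 1 in SRSF2 OE, 3 and 0 in SRSF3 OE, and 6 and 0 in SRSF7 OE. In the same order, 29%, 35.3%, 23.5%, 29.2% and 17.3% of all genes passed in either direction. These counts moved with the processing. With the GC trend removed they were 5 and 1 in 3xSR and 7 and 2 in MYC-OE. In the second table they were then 6 and 1 in SRSF2 OE, 8 and 1 in SRSF3 OE and 12 and 0 in SRSF7 OE. Without replicate 2 of 1xCtrl these 3 lines gave 4 and 2, 6 and 2, and 9 and 0. GSS, glutathione synthetase, rose in MYC-OE, at 47.0 CPM ± 1.90 in 3XCTL and 75.9 ± 3.30 in MYC-OE (SD, n = 3), a log2 fold change of 0.69 ± 0.05 (SE) with an edgeR adjusted p of 1.0e-06, and in 3xSR by 0.34 (edgeR adjusted p = 4.1e-04). The NRF2 targets NQO1 and SRXN1 rose in SRSF3 OE by 0.42 and 0.47 (edgeR adjusted p = 5.3e-04 and 5.1e-04), the line of the second table with the highest SLC7A11. SRSF7 OE, with 6 of the 13 genes higher and 0 lower, had SLC7A11 at -0.27 (SE 0.10) against 1xCtrl. A link of this list to SLC7A11 was not tested. Among 7 enzymes of glutamine and glutamate, GLUL, glutamine synthetase, rose in SRSF7 OE, at 236 CPM ± 16.1 in 1xCtrl and 361 ± 6.81 in SRSF7 OE (SD, n = 3), a log2 fold change of 0.61 ± 0.06 (SE) with an edgeR adjusted p of 7.5e-05. Of the 7, 1 rose and 2 fell in 3xSR, 2 and 1 in MYC-OE, 0 and 1 in SRSF2 OE, 1 and 3 in SRSF3 OE, and 1 and 1 in SRSF7 OE, with the same shares of all genes, and with the GC trend removed 0 and 3 passed in SRSF2 OE and 2 and 1 in SRSF7 OE.

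Across the 21 libraries, with each table centred on its own mean, the genes fell into opposed patterns. Pearson's r was 0.94 between SLC7A11 and SLC38A1, 0.81 between SLC7A11 and SLC38A2, 0.81 between SLC3A2 and SLC7A1, and 0.78 between SLC1A4 and SLC1A5. SLC1A4 ran against SLC7A11 (r = -0.80) and SLC38A1 (r = -0.80), and SLC1A5 against SLC38A1 (r = -0.78). Over the same libraries, among 11113 genes, the closest in pattern to SLC1A4 were KLK11 (r = 0.97) and TMEM125 (r = 0.97), and to SLC1A3 HAGLR (r = 0.94) and TMEM35B (r = 0.93). For SLC1A5 they were TINAGL1 (r = 0.96) and SLC2A1 (r = 0.95), the latter the glucose carrier GLUT1, for SLC3A2 XXYLT1 (r = 0.91) and URB1 (r = 0.91), and for SLC7A1 PREX1 (r = 0.91) and COLGALT1 (r = 0.90). SLC7A5 was close to POR (r = 0.96), SLC7A11 closest to F2RL1 (r = 0.97) and ATP11B (r = 0.96), SLC38A1 to PDZD8 (r = 0.98) and SSR1 (r = 0.97) and SLC38A2 to CLDN12 (r = 0.98) and SERINC5 (r = 0.97). The libraries come in 7 groups, so these values describe mostly differences between groups, and they share depth and the GC tilt, with which r over all 21 was 0.72 for SLC7A5, 0.81 for SLC1A5, 0.56 for SLC1A4 and -0.77 for SLC38A1.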

How the data were processed

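RNA of 21 libraries was deposited as 2 tables of whole-number counts per gene. The submitters' processing notes name Trimmomatic 0.39, STAR, StringTie 2.1.3b and GRCh38.p13, without their roles, so how the authors made the counts, including any use of strand, is not given in the sources used here. The 60668 rows of each table were matched to GENCODE release 29 (GRCh38) without version, which 58561 matched, for positions, exon lengths and GC content. The members and all lists were chosen with earlier results of these data known. A few named genes are not reported here.

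Counts as deposited were tested per table with edgeR 4.0.16 (R 4.3.3): filterByExpr, TMM scaling, robust quasi-likelihood F tests, two-sided, Benjamini-Hochberg adjustment over all 23160 or 24362 genes, threshold 0.05. CPM use the TMM-scaled totals of a table, so levels are compared within a table. Named genes outside the 10 are, per list and contrast, up to 2 with the highest and 2 with the lowest fold change among those passing, with a mean of at least 1 CPM and no overlap between groups. The genes closest in pattern were sought among those with at least 5 CPM. Alternatives were RLE, upper-quartile and total-count scaling, other filters, DESeq2 1.42.0, limma-voom (limma 3.58.1), the 2 groups alone, a replicate block, removal of each library's GC trend (50 bins), and leaving out each library. On simulated counts with 200 genes changed 2-fold, the fit called 54.0% of them in 3xSR against 3XCTL (23160 genes) and 53.5% in SRSF2 OE against 1xCtrl, or 92.6% of the 95 and 89.6% of the 96 with at least 5 CPM; 7.69% and 6.14% of the calls were false. The simulated counts were drawn independently for each gene and had no GC tilt. These rates therefore do not cover errors from the tilt of the real libraries. No 2 libraries of a group agreed within sampling noise (chi-square per degree of freedom 15.9 to 275 over 21 pairs).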

Additional observations from a re-analysis of the deposited data

How the results depend on the processing

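SLC1A4 in 3xSR and SRSF3 OE, and SLC1A3 in 3xSR, MYC-OE, SRSF2 OE and SRSF7 OE, kept the direction of their fold change against the control in all alternatives. Removing the GC trend changed the number of transporters passing from 3 to 5 in SRSF2 OE and in SRSF7 OE against 1xCtrl, from 8 to 5 in MYC-OE against 3xSR and from 2 to 4 in SRSF7 OE against SRSF2 OE, and that of other transporters in SRSF7 OE from 7 to 11. With only the 2 groups compared in the fit, 1 transporter passed in SRSF3 OE against 1xCtrl in place of 6, and 5 in SRSF7 OE against SRSF2 OE in place of 2. Leaving out 1 library gave 5 to 7 transporters in 3xSR, 4 to 6 in MYC-OE, 3 to 5 in SRSF2 OE, 2 to 5 in SRSF3 OE and 3 to 7 in SRSF7 OE, and 6 to 14 other transporters in SRSF7 OE, the highest counts of SRSF2 OE and SRSF7 OE without 1xCtrl replicate 2; between lines it gave 6 to 7 in MYC-OE against 3xSR, 6 to 8 in SRSF3 OE against SRSF2 OE, 2 in SRSF7 OE against SRSF2 OE and 7 to 8 in SRSF7 OE against SRSF3 OE. Signs changed, with the GC trend removed, for SLC7A11 in MYC-OE against 3xSR (0.0677), and in SRSF7 OE against SRSF2 OE for SLC1A5 (-0.0919) and SLC7A11 (-0.0175), and for SLC7A5 in SRSF7 OE against SRSF3 OE with total-count scaling (0.0350) and when 1 library was left out (-0.133 to 0.0429, the highest without SRSF7 OE replicate 2). Against the controls, removing the GC trend changed the sign of SLC1A5 (-0.09 to 0.13), SLC3A2 (-0.04 to 0.12) and SLC7A1 (-0.0015 to 0.07) in 3xSR, SLC38A1 in MYC-OE (-0.03 to 0.01), SLC7A1 in SRSF2 OE (0.01 to -0.0018) and SLC7A5 in SRSF7 OE (0.06 to -0.01), and under at least 1 other alternative SLC1A5 and SLC3A2 in SRSF2 OE and SLC7A5 in SRSF3 OE changed sign. The cause was not tested. Total-count scaling moved the median log2 fold change of all genes from -0.0251 to -0.136 in SRSF3 OE against 1xCtrl and from 0.0231 to 0.131 in SRSF7 OE against SRSF3 OE. It also moved the genes called higher and lower from 2823 and 2910 to 2241 and 3860 in SRSF2 OE, from 3666 and 3442 to 2296 and 4862 in SRSF3 OE (2546 and 4047 with upper-quartile scaling), from 3108 and 2791 to 3986 and 2303 in SRSF7 OE against SRSF2 OE and from 4226 and 4343 to 5629 and 3076 in SRSF7 OE against SRSF3 OE, while upper-quartile scaling moved SRSF3 OE against SRSF2 OE from 3442 and 3081 to 2363 and 3698.

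Same-numbered libraries did not deviate together (correlations -0.19 to 0.05). In 0 of 9 contrasts did every library correlate best with its own number, though 2 of 3 did in MYC-OE against 3xSR. No pairing by replicate number was seen, but with 3 libraries per group a weak pairing could be missed. With a replicate block 5 transporters passed in 3xSR, 6 in MYC-OE, and 3, 5 and 3 in the lines of the second table, taken by factor number, with 7 in MYC-OE against 3xSR, 8 in SRSF3 OE against SRSF2 OE, 2 in SRSF7 OE against SRSF2 OE and 8 in SRSF7 OE against SRSF3 OE; for other transporters the block gave 11, 15, 10, 11, 6, 15, 11, 9 and 16 in the same order. With the block and the GC trend removed, the counts that moved were 5 in SRSF2 OE, 5 in SRSF7 OE, 5 in MYC-OE against 3xSR and 4 in SRSF7 OE against SRSF2 OE, and for the 3 line-against-line values named above the signs changed as with the GC trend alone (0.0678, -0.0916 and -0.0175). SLC1A1, with counts at or near 0, could not be tested at this depth.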

Other observations

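Genes by which mTORC1 senses amino acids were listed too, and more of them fell than rose in the lines of the first table. Of 28, 3 rose and 9 fell in 3xSR and 4 rose and 12 fell in MYC-OE (edgeR adjusted p under 0.05), where 29% and 35.3% of all genes passed. RRAGD, a small GTPase that recruits mTORC1 to lysosomes, rose in both, and in MYC-OE stood at 1.28 CPM ± 0.163 in 3XCTL and 4.32 ± 0.299 in MYC-OE (SD, n = 3), a log2 fold change of 1.76 ± 0.12 (SE) with an edgeR adjusted p of 6.2e-07. SESN3, a stress-induced sestrin, fell in all 5 lines, with log2 fold changes of -1.11 in 3xSR, -2.58 in MYC-OE, -0.72 (SRSF2 OE), -0.79 (SRSF3 OE) and, for SRSF7 OE, -0.72 (edgeR adjusted p = 5.5e-04, 7.6e-07, 0.0032, 0.0013 and 0.0054). Against 1xCtrl, 5 rose and 4 fell in SRSF2 OE, 2 and 5 in SRSF3 OE, and 4 and 2 in SRSF7 OE, where 23.5%, 29.2% and 17.3% of all genes passed. These counts moved with the processing: with the GC trend removed they were 7 and 6, 8 and 8, and 6 and 9, without replicate 2 of 1xCtrl 7 and 7, 8 and 7, and 8 and 5, and with scaling by total counts 3 and 6, 0 and 11, and 4 and 5, so no direction is given for the second table.

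Of 11 mitochondrial amino acid carriers, 10 were tested. 1 rose and 1 fell in 3xSR, 3 and 2 in MYC-OE, 2 and 2 in SRSF2 OE, 2 and 2 in SRSF3 OE, and 0 and 1 in SRSF7 OE, where 29%, 35.3%, 23.5%, 29.2% and 17.3% of all genes passed. With the GC trend removed the counts of 3xSR and SRSF7 OE were 2 and 2, and 2 and 2, and without replicate 2 of 1xCtrl 1 and 1 passed in SRSF3 OE and 1 and 1 in SRSF7 OE. SLC25A12, an aspartate and glutamate carrier of the inner membrane, rose in MYC-OE, at 18.5 CPM ± 2.42 in 3XCTL and 31.0 ± 1.74 in MYC-OE (SD, n = 3), a log2 fold change of 0.75 ± 0.08 (SE) with an edgeR adjusted p of 3.0e-05, and in 3xSR by 0.62 (edgeR adjusted p = 1.8e-04). SLC25A29, a carrier of basic amino acids, was higher in SRSF7 OE than in SRSF3 OE, at 27.4 CPM ± 4.02 in SRSF3 OE and 44.5 ± 3.38 in SRSF7 OE (SD, n = 3), a log2 fold change of 0.70 ± 0.10 (SE) with an edgeR adjusted p of 1.6e-04.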
